A study of Caenorhabditis elegans with 2 samples.

Results

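The 10 genes described here encode subunits of the SWI/SNF chromatin remodelling complexes of Caenorhabditis elegans. They were taken as a list of names out of 19973 protein-coding genes. The rule uses no measured value, but the list was chosen with earlier results of these data known. It comprises swsn-1, swsn-4, snfc-5, swsn-3, let-526, dpff-1, swsn-7, swsn-9, pbrm-1 and phf-10. The 3 further subunit genes swsn-2.2, swsn-6 and ham-3 are not on the list and are given beside it. Peaks of the subunit LET-526 itself were collected from 1000 bp upstream of each gene's annotated start to its end. Binding was measured by ChIP-seq, in which chromatin is fragmented and the pieces bound by a protein are recovered with an antibody and sequenced. The worms were of strain RW12306, in which the allele st12306 is a CRISPR insertion that gives let-526 a TY1, EGFP and 3xFLAG tag, so let-526 is also the edited gene. They had been synchronised by bleaching and starvation as L1 larvae and were taken whole as young adults at 60 hours, with sex not collected. Chromatin was sonicated and recovered with an antibody against GFP in 2 biological replicates of this 1 group, and a possible control experiment named in the labels was not analysed here. Signals come from all tissues of the animal at once, and from 1 tagged strain.

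SWI/SNF complexes use ATP to slide or evict nucleosomes and so open DNA at promoters and enhancers. A shared core surrounds the ATPase, and further subunits make 2 forms: BAF, which is defined by an ARID1-type subunit, and PBAF, which carries an ARID2-type subunit, a polybromo protein and other readers of histone marks. By their mammalian orthologs, 4 of the genes belong to the core, 2 to BAF and 4 to PBAF. The core genes are swsn-4 (the BRG1/BRM-type ATPase), swsn-1 (the SMARCC-type scaffold), snfc-5 (the SNF5 ortholog) and swsn-3 (the HMG-box subunit of the SMARCE1 type). BAF is represented by let-526 (ARID1) and dpff-1, which encodes a double PHD finger protein of the DPF family. The PBAF genes are swsn-7 (ARID2), swsn-9 (a bromodomain protein of the BRD7/BRD9 type, whose place in PBAF is less certain), pbrm-1 (polybromo) and phf-10 (a PHD finger protein).

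The DNA under the promoter peaks of swsn-7 and swsn-3 is shown. Among the members, only these had a peak past the threshold from 1000 bp upstream to 200 bp downstream of the annotated start. Each stretch runs 100 bp to either side of the peak's summit, its highest point, which is base 101, on the plus strand of ce11 (WBcel235, from RefSeq). Capitals mark matches on either strand to GCGCG, to the motif GAGAG and to the E-box CACGTG.
swsn-7, chrII:8028352-8028552: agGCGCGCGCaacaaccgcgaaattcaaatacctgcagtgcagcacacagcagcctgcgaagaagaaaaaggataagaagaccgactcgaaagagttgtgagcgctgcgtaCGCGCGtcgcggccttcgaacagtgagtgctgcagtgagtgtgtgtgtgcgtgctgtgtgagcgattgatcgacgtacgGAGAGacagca
swsn-3, chrIII:2768736-2768936: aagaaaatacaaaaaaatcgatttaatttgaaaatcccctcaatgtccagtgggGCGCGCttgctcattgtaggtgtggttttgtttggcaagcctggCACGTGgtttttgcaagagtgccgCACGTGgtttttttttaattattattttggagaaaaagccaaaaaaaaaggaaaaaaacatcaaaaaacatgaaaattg
The swsn-7 stretch held 6 matches to GCGCG, several of them overlapping, and 1 to GAGAG. The swsn-3 stretch held 2 overlapping matches to GCGCG and 2 copies of the E-box, which is read by many basic helix-loop-helix factors. Bases A and T made up 44.3% of the swsn-7 stretch and 64.2% of the swsn-3 stretch, around a median of 54.7% over all 1200 peaks that passed the threshold.

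The authors' peaks came in 4 lists: the optimal and the conservative list, both made from the 2 replicates together, and a list for each replicate. Each was deposited whole, as ranked peaks, and after a threshold on the irreproducible discovery rate (IDR, the expected rate of peaks that do not repeat) at about 0.01. The optimal list held 1200 peaks after the threshold, the conservative list 1077, replicate 1 held 585 and replicate 2 held 421. The ranked lists held between 46104 and 81275 peaks, most of which had an IDR above the threshold. In the optimal ranked list 1324 peaks had an IDR of 0.01 or lower, more than the 1200 kept. The other lists differed in the same direction, so the threshold alone does not give the shorter lists. A peak's signal is the authors' own value in its caller's units, and it was used only to order peaks within a list. No read counts were given, so the depth of the libraries is unknown.

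LET-526 peaks of the optimal list lay in the windows of 4 of the 10 subunit genes, namely swsn-7, swsn-3, pbrm-1 and let-526, beside 4.87% of all protein-coding genes (972 genes). The summit was in the promoter window, from 1000 bp upstream to 200 bp downstream of the start, at swsn-7 and swsn-3, which is 2 of 10 beside 3.32% of all genes. At let-526 and pbrm-1 it was inside introns, which is again 2 of 10, beside 1.32% of all genes. No member had peaks of both kinds. The 4 genes held 6 peaks, 3 of them in let-526, and every summit outside a promoter was intronic. The members' coding exons, 27.0 kb in all, held 0. All genes had 0.294 peaks per 100 kb of coding exon, so this 0 does not set the members apart.

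All forms of the complex were represented. In the core, 1 of 4 genes had a peak (swsn-3), in BAF 1 of 2 (let-526) and in PBAF 2 of 4 (swsn-7 and pbrm-1). The share over all genes was 4.87%. PBAF therefore had a promoter site at its ARID2-type gene and an intronic site at its polybromo gene, the core had a promoter site only, and BAF had intronic sites only. With 2 to 4 genes in a class these counts do not separate the classes, and the core count falls to 0 when swsn-3 is not counted as a core gene. The PBAF count is still 2 when swsn-9 is not counted, which was certain beforehand because swsn-9 had no peak. The ATPase gene swsn-4, the scaffold gene swsn-1, snfc-5, dpff-1, swsn-9 and phf-10 had none. Neither did the remaining subunit genes swsn-2.2 and ham-3 (both of the SMARCD type) and swsn-6 (actin-related), 0 of 3, nor the ATPase genes of other remodellers, isw-1, let-418, chd-3, chd-1, chd-7 and ssl-1, 0 of 6. With 4.87% of all genes having a peak, counts of 0 in sets this small do not set these genes apart.

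The conservative list named the same 4 genes (4.52% of all genes), with the same 2 promoters (3.16%) and the same 2 genes with intronic peaks (1.17%). The replicates alone called fewer. Replicate 1 placed peaks at 2 of the 10 genes, beside 2.53% of all genes: swsn-7 in the promoter (1 of 10, beside 1.83%) and pbrm-1 in the intron (1 of 10, beside 0.596%). Replicate 2 called 1 of the 10, beside 1.88% of all genes: the swsn-7 promoter (1 of 10, beside 1.35%). Its intron count was 0 of 10, beside 0.421% of all genes. Thus swsn-7 was called in every list, pbrm-1 in all but replicate 2, and swsn-3 and let-526 only in the lists made from both replicates. With only the optimal peaks at or above the median signal, 2 of the 10 members had a peak, beside 2.78% of all genes: swsn-7 in the promoter (1 of 10, beside 2.09%) and pbrm-1 in the intron (1 of 10, beside 0.601%). A promoter window starting 500 bp upstream held a peak at swsn-3 alone, 1 of 10, beside 2.55% of all genes.

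**Figure D1:**
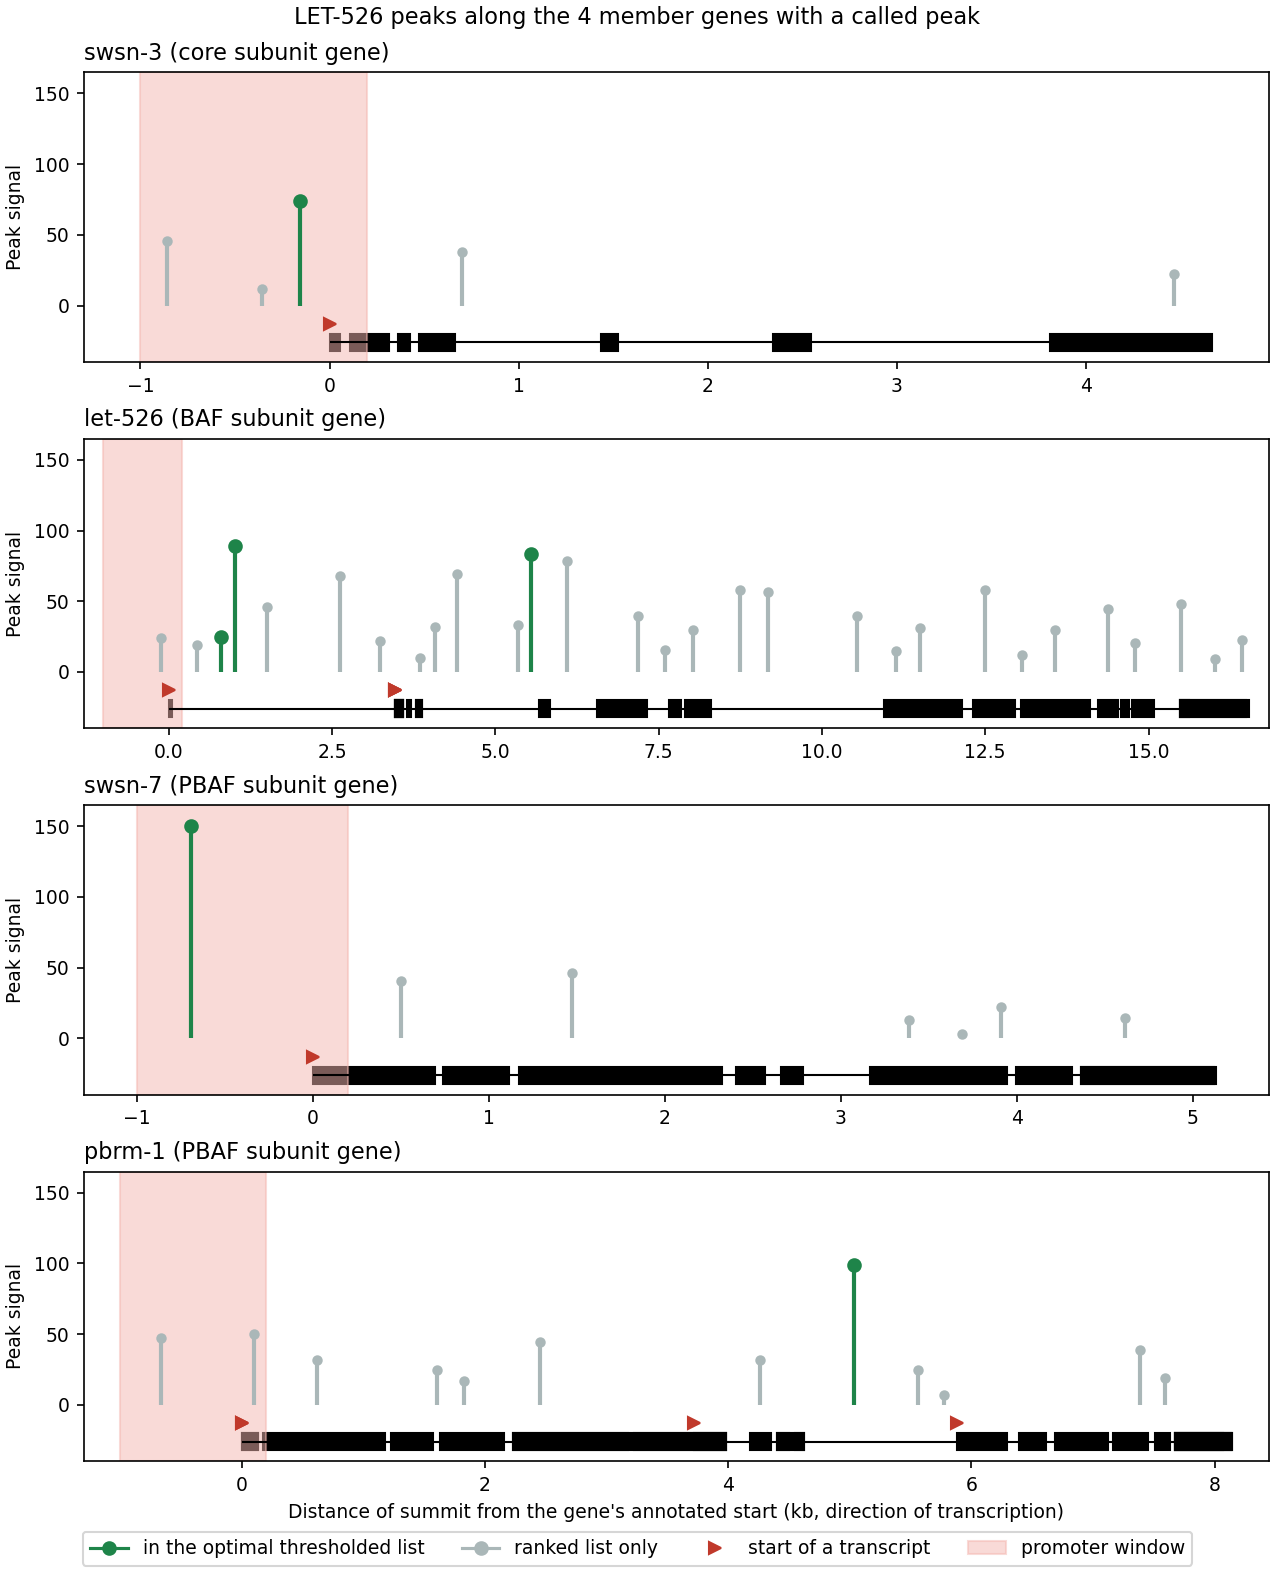
Peak signal in the optimal ranked list (y axis, the authors' units) against the distance of each summit from the annotated start (x axis, kb, in the direction of transcription) for swsn-3, let-526, swsn-7 and pbrm-1, with peaks past the threshold in green, other ranked peaks in grey, exons as black boxes, transcript starts as red triangles and the promoter window shaded. The swsn-7 and swsn-3 summits lie 689 and 157 bp upstream of the start, and those of pbrm-1 and let-526 lie inside introns.

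The strongest site was in the promoter of swsn-7, the ARID2-type PBAF subunit (WBGene00007433, II 8022632-8027763, minus strand). The peak covered II 8028317-8028586, with its summit 689 bp upstream of the start, and had a signal of 149.9 in the optimal list at an IDR of 0.000148. It stood at place 149 of 1200. In replicate 1 the signal was 84.4 at an IDR of 0.000587, and in replicate 2 it was 58.2 at an IDR of 0.00383, so both replicates passed the threshold, with summits 705 and 693 bp upstream. Among the 664 genes with an optimal promoter peak it ranked 123, between nipi-3 at 150.1 and W08E12.7 at 148.7. The summit also fell in the body of the noncoding RNA gene C08B11.11 and 207 bp upstream of another, C08B11.13.

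The promoter of swsn-3, the HMG-box core subunit (WBGene00022182, III 2764010-2768679, minus strand), held a weaker peak at III 2768701-2768970, with its summit 157 bp upstream of the start. Its signal was 74.0 at an IDR of 0.00428, place 1019 of 1200, and it ranked 613 of the 664 genes, between egl-17 at 74.3 and ttll-4 at 73.7. Replicate 1 gave 37.0 at an IDR of 0.0900 and replicate 2 gave 43.3 at an IDR of 0.0473, and neither passed the threshold alone. The summit also lay in an intron of cox-6B, whose annotated model on the opposite strand runs over 87197 bp (III 2699663-2786859). It was counted for both genes.

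Polybromo gene pbrm-1 (WBGene00007042, I 7495436-7503582, plus strand) had its peak at I 7500334-7500603, in an intron of 1260 bp, 5033 bp past the start. The optimal signal was 98.7 at an IDR of 0.00149, place 492 of 1200. Replicate 1 gave 61.0 at an IDR of 0.00448 and called it, while replicate 2 gave 32.6 at an IDR of 0.146 and did not. The replicate 2 value was below the lower quartile, 34.5, of the 1170 optimal peaks matched in both replicates, whereas the replicate 1 value was above the median of 53.5. The site is 848 bp upstream of the start of a shorter pbrm-1 transcript, so it becomes a promoter site when every annotated transcript start is used. By that rule 3 of the 10 members had a promoter peak, beside 3.72% of all genes, and 1 of 10 an intronic peak, beside 1.05%. The noncoding RNA gene C26C6.12, on the opposite strand, starts 142 bp from the summit on the side of the pbrm-1 start and runs away from the summit.

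The gene of the tagged protein, let-526 (WBGene00002717, I 5300852-5317392, minus strand), carried the most sites. In the optimal list these were peaks with summits 808, 1016 and 5545 bp past the start. The site at 1016 bp (I 5316241-5316510) had a signal of 89.2 at an IDR of 0.00527, place 650 of 1200, with 47.5 in replicate 1 (IDR 0.0848) and 43.3 in replicate 2 (IDR 0.0656). The site at 5545 bp (I 5311712-5311981) had 83.1 at an IDR of 0.00471, place 799, with 40.6 in replicate 1 (IDR 0.371) and 37.3 in replicate 2 (IDR 0.042). The site at 808 bp (I 5316449-5316718) had only 24.6 at an IDR of 0.00525, place 1162, and overlaps the one at 1016 bp. Replicate 1 gave it 18.6 (IDR 0.0850). Both overlap the same replicate 2 peak, and the conservative list gave the weaker one an IDR of 0.518. They can therefore be read as 1 site, which leaves 5 sites in the 4 genes.

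None of the let-526 sites passed the threshold in either replicate alone. The conservative list kept the sites at 1016 and 5545 bp and added one at 2629 bp (signal 67.9, conservative IDR 0.00774, optimal IDR 0.0377) and one at 5346 bp (signal 33.3, conservative IDR 0.00607, optimal IDR 0.560). The site at 2629 bp had 46.1 in replicate 1 (IDR 0.0492) and 32.4 in replicate 2 (IDR 0.247). The one at 5346 bp overlaps the same replicate peaks as the site at 5545 bp. The sites at 808 and 1016 bp share an intron of 3409 bp with the antisense RNA gene F48C1.15, and the one at 5545 bp lies in an intron of 1793 bp. Its summit is 156 bp past the start of the noncoding RNA gene F48C1.12, which is 135 bp long, and so just beyond that gene's end. The site at 2629 bp is 833 bp upstream of a group of later let-526 transcript starts. The let-526 promoter at the annotated start held 1 ranked peak, 114 bp upstream, with a signal of 23.8 at an IDR of 0.826.

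**Figure D2:**
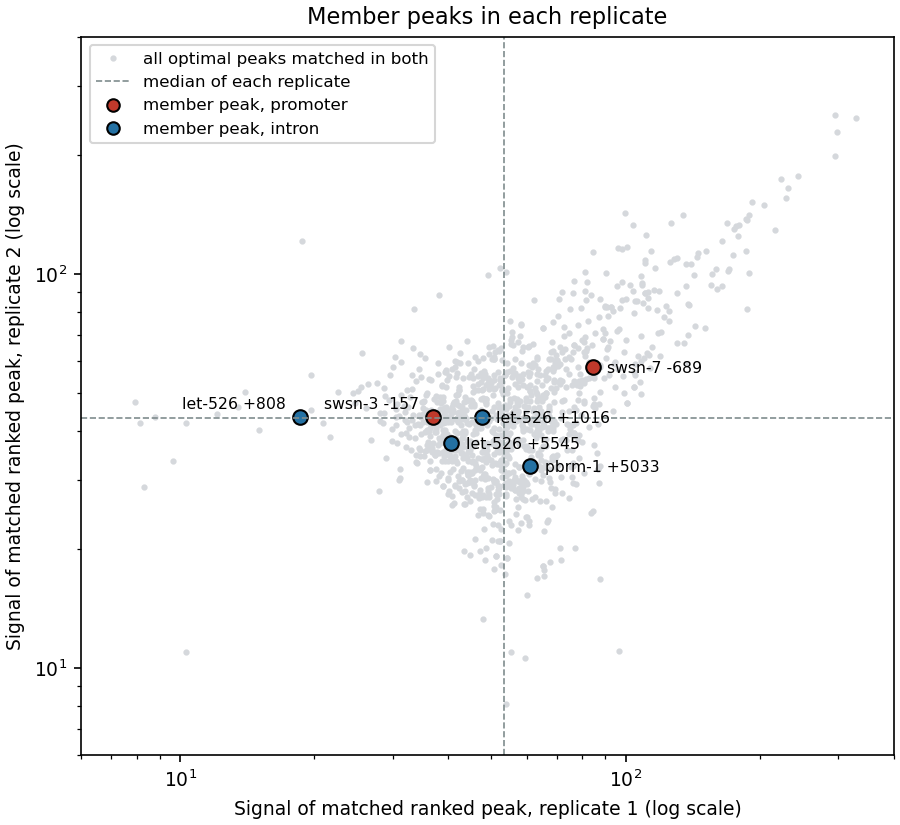
Signal in replicate 1 (x axis, log scale, the authors' units) against signal in replicate 2 (y axis, log scale) for the 1170 optimal peaks matched in both, in grey, with the members' sites coloured by location and labelled with their distance from the start (bp); dashed lines mark the median of each replicate. Of the member sites, swsn-7 (84.4 and 58.2) is above the median of both replicates, and pbrm-1 (61.0 and 32.6) of replicate 1 only, while swsn-3 (37.0 and 43.3) is below the median of 53.5 in replicate 1 and next to that of 43.1 in replicate 2. The let-526 sites at 808, 1016 and 5545 bp are below the replicate 1 median (18.6, 47.5 and 40.6). In replicate 2 those at 808 and 1016 bp share the same peak of 43.3, and the one at 5545 bp has 37.3.

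Below the threshold, the ranked lists show how the remaining members compare. In the optimal ranked list the strongest promoter peak was 149.9 at swsn-7, stronger than that of 99.4% of all genes, and 74.0 at swsn-3, stronger than that of 96.5%. Next came pbrm-1 with 50.2 (88.7% of genes, IDR 0.141), swsn-9 with 39.2 (76.4%), dpff-1 with 36.9 (72.8%) and snfc-5 with 28.4 (56.8%). The lower members were let-526 with 23.8 (48.1%), phf-10 with 18.7 (40.9%) and the ATPase gene swsn-4 with 14.8 (37.5%). The scaffold gene swsn-1 had no ranked promoter peak, whereas 65.5% of all genes had one. The median over all genes was 24.9, which 6 of the 10 members exceeded. The promoter windows of pbrm-1, dpff-1, snfc-5 and let-526 each also held the start of another protein-coding gene. A ranked peak there was counted for every gene whose window held it. The additional subunit genes swsn-6 and swsn-2.2 had 52.8 and 40.1, and ham-3 had none. Of the other remodeller ATPase genes, chd-7 had 72.6, close to swsn-3, isw-1 had 63.2 and let-418 had 52.2. The values of chd-3 and chd-1 were 39.5 and 39.1, and ssl-1 had none.

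The head of this order was the same in each replicate, and the rest was not. In replicate 1, swsn-7 had 84.4, swsn-3 had 37.0 and pbrm-1 had 29.0. In replicate 2, swsn-7 had 58.2, swsn-3 had 43.3 and pbrm-1 had 27.6. The pbrm-1 values came from different places, 109 bp past the start in replicate 1 and 668 bp upstream of it in replicate 2, although both replicates had a peak at or near each place. Below these, swsn-9 led in replicate 1 with 22.1 and let-526 in replicate 2 with 21.5, a gene with no promoter peak in replicate 1. In replicate 2, swsn-1, swsn-4 and dpff-1 had none. The order of the members below pbrm-1 is thus within the difference between replicates.

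At an IDR of up to 0.05 in the optimal ranked list, the promoter count stayed at 2 of 10, beside 5.62% of all genes, and at up to 0.1 it was still 2 of 10, beside 7.43%. Over the whole window the count at 0.05 was 5 of 10, beside 9.21% of all genes. The gene added was dpff-1, with a peak in a coding exon 493 bp past the start (signal 64.6, IDR 0.0228). The overlapping peaks of the replicates had 35.6 in replicate 1 (IDR 0.251) and 28.9 in replicate 2 (IDR 0.431), so neither reached that level. In let-526 the intronic peaks at 4410 bp (signal 69.5, IDR 0.0221), 2629 bp and 8741 bp (signal 58.3, IDR 0.0407) came in at this level. The strongest peak of phf-10, 61.1 at 6315 bp in an exon outside its coding sequence, reached an IDR of 0.151 only. No ranked peak of swsn-1, swsn-4, snfc-5 or swsn-9 had an IDR below 0.4 in that list.

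**Figure D3:**
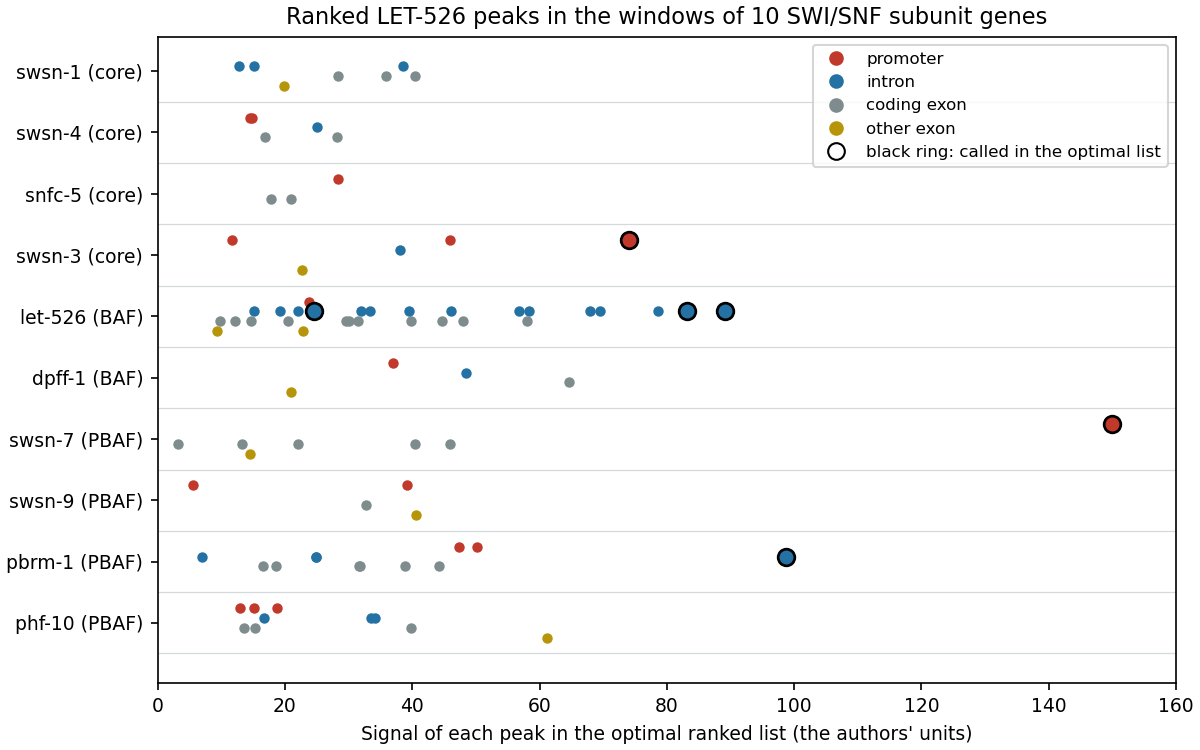
Signal (x axis, the authors' units) of each peak of the optimal ranked list in the windows of the 10 genes (rows), coloured by location, with a black ring on those past the threshold. The promoter peak of swsn-7 at 149.9 stands furthest right, and let-526 holds the most peaks, 29.

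Long genes have more room for peaks, so counts were set against length. The members held 8.10 optimal peaks per 100 kb of window (6 peaks in 74.1 kb) and all genes 1.32. Without let-526 the members held 5.31. In promoter windows the density was 16.7 per 100 kb for the members (2 peaks) and 2.88 for all genes, and in introns it was 14.3 for the members (4 peaks) and 0.933 for all genes. The overlapping pair in let-526 counts as 2 peaks in the window and intron values. With overlapping peaks merged, the members' windows held 5 sites. Without let-526 the intron value rests on the pbrm-1 peak alone and was 5.48. In coding exons the members had 0 peaks and all genes 0.294 per 100 kb. The members' densities were lower by over 1.5 times in each replicate alone. In replicate 1 they were 2.70 for the members and 0.657 for all genes over the window, 8.33 for the members and 1.57 for all genes in promoters, and 3.57 for the members and 0.407 for all genes in introns. In replicate 2 they were 1.35 for the members and 0.469 for all genes over the window, 8.33 for the members and 1.14 for all genes in promoters, and 0 for the members and 0.273 for all genes in introns. The members' values for single replicates rest on 2 peaks or 1.

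Ranked peaks differed less from the rest of the genome, at 116.1 per 100 kb in the members (86 peaks) and 85.5 in all genes, and 100.8 in the members without let-526. In the conservative list the members had 94.5, and 83.1 without let-526, the same as the 83.1 of all genes. In replicate 1 the members had 74.2, 61.9 without let-526, and all genes 48.9, and in replicate 2 the members had 71.5, 61.9 without let-526, and all genes 51.8. By class the density in the optimal list was 78.1 for the core, 154.7 for BAF and 121.6 for PBAF (125.9 without swsn-9). In the conservative list it was 46.8 for the core, 131.3 for BAF and 110.5 for PBAF (117.2 without swsn-9). Of the core genes, swsn-1 had 0.619 ranked peaks per kb, swsn-4 0.814, swsn-3 0.882 and snfc-5 1.20. The PBAF genes had 0.973 (swsn-9), 1.14 (swsn-7), 1.29 (phf-10) and 1.31 (pbrm-1), and the BAF genes 1.06 (dpff-1) and 1.65 (let-526). The value of snfc-5 thus lay among those of the PBAF genes, and it rests on 3 peaks. In replicate 1 the core gene swsn-1, at 0.531, was above the PBAF gene swsn-7, at 0.489, and in replicate 2 so was swsn-4, at 0.652, above swsn-7, again at 0.489. In the conservative list snfc-5, at 1.20, was above phf-10 (1.03), swsn-7 (0.978) and swsn-9 (0.730) and below pbrm-1 (1.42). Core and PBAF genes therefore overlapped in all 4 lists.

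**Figure D4:**
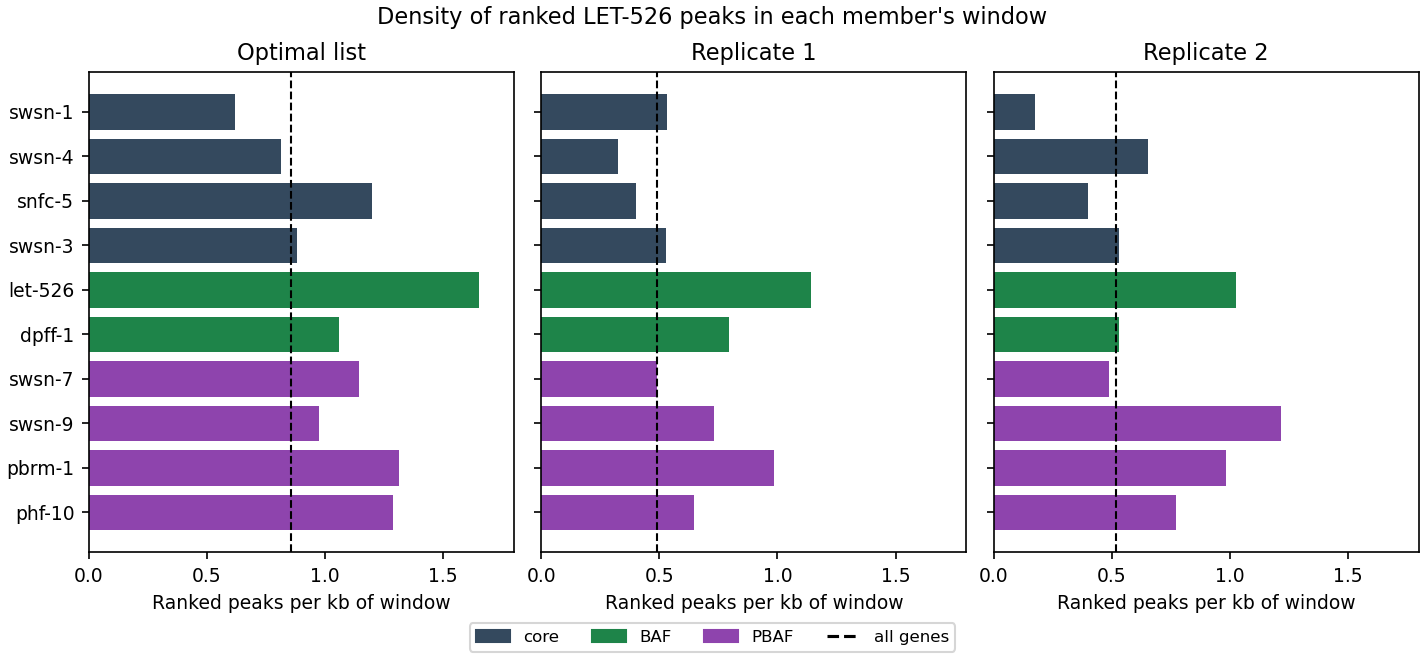
Ranked peaks per kb of window (x axis) for each of the 10 genes (rows, coloured by class) in the optimal list, replicate 1 and replicate 2, with a dashed line at the density over all genes. The bar of let-526 is the longest in the optimal list (1.65) and in replicate 1 (1.14), and that of swsn-9 in replicate 2 (1.22).

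The 29 ranked peaks of let-526 were also many for a gene of its length. Its density in the optimal list was above that of 98.5% of the 1233 genes with windows of 10 kb or more, with 98.4% in replicate 1, 97.0% in replicate 2 and 90.8% in the conservative list. The scaffold gene swsn-1, with a window of 11307 bp, was above 28.1% of these genes in the optimal list, 7.95% in the conservative list, 60.7% in replicate 1 and 14.2% in replicate 2. Of the long genes, 11.0% had an optimal peak and 13 of 1233 had 3 or more, let-526 among them, where the overlapping pair at 808 and 1016 bp was counted as 2. The flanks of let-526, taken at the same length of 17541 bp, held 12 ranked peaks downstream and 0 upstream. All genes had 85.5 ranked peaks per 100 kb of window. The upstream count is low beside that, and so makes a poor baseline for let-526. In replicate 1 the downstream flank held 6, the gene's window 20 and the upstream flank 0, and in replicate 2 they held 6, 18 and 2. Inside let-526 the intronic peaks had a median signal of 46.1 (15 peaks, 6 with an IDR of up to 0.05) and those in coding exons a median of 30.0 (11 peaks, 0 at that IDR). In replicate 1 the medians were nearly equal, 26.7 in introns (11 peaks, 1 at that IDR) and 26.5 in coding exons (8 peaks, 0 at that IDR). In replicate 2 they were 29.2 in introns (12 peaks, 1 at that IDR) and 14.6 in coding exons (5 peaks, 0 at that IDR).

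The member sites were set against all optimal peaks in nearby noncoding RNA genes and in short motifs. The noncoding RNA comparison was chosen after the data were seen, so it only describes these sites. A noncoding RNA gene, or the 1000 bp upstream of one, held the summit of 4 of the 6 member peaks (66.7%), beside 21.3% of all 1200 optimal peaks and 9.44% of all ranked peaks. These 4 were the swsn-7 and pbrm-1 summits and the overlapping pair in let-526, so they stand for 3 sites. Of 6 short motifs searched on both strands within 100 bp of the summit, GAGAG was in 5 of the 6 member windows and in 53.2% of all 1200. GCGCG, whose matches may overlap, was in 4 of 6 and in 31.8% of all. CACGTG was in 1 of 6 (swsn-3) and in 10.3% of all, and TGACTC in 1 of 6 (let-526 at 808 bp) and in 6.17% of all. TATAAA and TTTCAG were in 0 of 6, and in 11.3% and 17.7% of all windows. The pbrm-1 window held 7 matches to GCGCG and 4 to GAGAG, and that of let-526 at 1016 bp held 3 and 4. The swsn-3 window, the weaker promoter site, was the one without GAGAG. A motif match describes the letters in these windows and not a bound factor.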

How the data were processed

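ChIP-seq of tagged LET-526 was measured in 2 replicates of whole young adult worms. The authors deposited peak lists on ce11, with no read counts. Per the labels these are thresholded and ranked IDR lists, while the aligner and peak caller (with versions) are not given in these sources. The signal of each peak is the authors' own. The deposited score, at most 1000, was 830 or more in the thresholded lists. The IDR was deposited by the authors as −log10 and converted to a rate here. Of the ranked lists of both replicates, the one that wholly contains the optimal peaks was taken as the optimal list, and the other as the conservative one.

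Summits were placed on Ensembl release 115 genes of WBcel235, the same assembly as ce11, for chromosomes I to V and X, with Python 3.11.15, pandas 2.3.3 and numpy 2.4.6. A summit counted as promoter from 1000 bp upstream to 200 bp downstream of the gene's start, and otherwise by coding exon, other exon or intron. A pooled peak was matched to the replicate peak overlapping it by 1 bp or more. The placement rule was checked on simulated positions planted at known places in genes. That check covers the window and location rules only, not the matching of peaks or the shares over all genes. With 1 group there is no comparison between samples and no p-value, so counts of members stand beside the share of all genes.

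Genes named beyond the 10 members were, by rule, the remaining subunits, other remodeller ATPases, genes at the members' summits, and the neighbours of each promoter member in order of signal. The members and lists were chosen with earlier results of these data known. The comparison with long genes, the flanks, the noncoding RNA genes and the ranked count over whole windows were chosen after the data were seen. The alternatives were the conservative list, each replicate alone, stronger peaks, other windows, any transcript start, overlap in place of summits, merged peaks, looser IDR, and swsn-3, dpff-1, phf-10 or swsn-9 left out of its class.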

Additional observations from a re-analysis of the deposited data

How the results depend on the processing

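Of 33 alternatives, 19 stayed within 1.5 times the main count and 14 moved. Those that left dpff-1, phf-10 or swsn-9 out of its class are among the 19. They could only stay, as these genes had no peak to lose. Leaving out a replicate meant using the shorter list of the other one. In replicate 1 and replicate 2, 1 and 1 members had a promoter peak, beside 1.83% and 1.35% of all genes (with both replicates 2, beside 3.32%). An intronic peak was at 1 and 0 members, beside 0.596% and 0.421% (with both 2, beside 1.32%). Any peak was at 2 and 1 members, beside 2.53% and 1.88% (with both 4, beside 4.87%). The members' windows held 2 peaks and 1 (6 with both). Keeping only optimal peaks at or above the median signal left 1 member with a promoter peak, swsn-7, beside 2.09% of all genes. It left 1 with an intronic peak, pbrm-1, beside 0.601%, and 2 with any, beside 2.78%. A window of 500 bp upstream left 1 promoter member, swsn-3, beside 2.55% of all genes. Counting the start of any transcript left 1 intronic member, let-526, beside 1.05% of all genes. Without swsn-3 the core count was 0. The alternative without swsn-9 was added after the data were seen. The conservative list, looser IDR, 2000 bp upstream, overlap in place of the summit, and merged peaks kept their counts within that range. No paired analysis was possible because all samples belonged to 1 group. With peaks only, the depth is unknown, and a member without a peak was not shown to be unbound. Peak signals cannot be compared between lists.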
